A study of Gasterosteus aculeatus with 12 samples.

Results

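Chromosome XIX is the sex chromosome of the threespine stickleback, *Gasterosteus aculeatus*. Males carry an X and a Y, females carry a pair of X chromosomes, and the X and Y have diverged along much of their length because they recombine only near one end. An expressed base that differs between an embryo's chromosome copies can be read directly from its RNA, since each read shows the base of the copy it was transcribed from. The reads at such a site give the level of each copy as well as their balance. The stretch described here runs from 3 to 12 Mb of chromosome XIX of the *gasAcu1-4* assembly, and its members are the 5424 single-nucleotide sites listed in all 12 embryos with more than 12 reads in each. They are part of 116469 such sites in the whole series and of 13812 sites of the stretch that were listed in all 12 embryos before the read limit. Position, listing in every embryo and read depth set the membership, and no limit on allele shares was added. The paper describes calling variants before counting reads, so the shares of sites given below are shares of variant sites.

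The samples were 12 whole F1 embryos of a cross between a female of the LITC population (Little Campbell River, an anadromous low-spine fish) and a high-spine male. They were made by in vitro fertilization and frozen at 72 h post-fertilization, stage 19/20. Each embryo is 1 library of total RNA made with a stranded mRNA kit, so the embryos are siblings of 1 cross, and a p-value over embryos covers the spread between these siblings only. No treatment or genotype separates the embryos in the labels, and their sex is not given there. They were placed in groups by their own alleles in the stretch. A site was taken as heterozygous in an embryo when the less frequent base made up more than 10% of its reads, and an embryo with more than 50% of the member sites heterozygous was put in the high-heterozygosity group. These are embryos 2, 4, 5, 6, 7 and 11. The low-heterozygosity embryos are 1, 3, 8, 9, 10 and 12. Because the groups rest on heterozygosity, heterozygosity itself is given without a test. Total depth, and the direction in which the alleles were unequal, played no part in the grouping. None of the 24 sequences named in the tables is a Y chromosome.

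Counted reads per embryo came to between 16302333 and 27003127 over all listed sites, in which a read counts once for every listed site it spans. Member sites had a median of 37 to 68 reads in the high-heterozygosity embryos and of 50 to 76 in the low-heterozygosity embryos. The first member lies at position 3016896 and the last at 11985619. Neighbouring members were a median of 39 bp apart, and 65.1% of the gaps between them were within 75 bp. Many members therefore share reads and are not independent measurements. Joined wherever the gap was at most 5 kb, the members formed 143 clusters, which stand here in place of genes, since no annotation of *gasAcu1-4* was used. At most 2.53% of the member sites had identical counts in any of the 66 pairs of embryos, so no library appeared more than once.

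The embryos fell far to either side of the grouping limit. In the high-heterozygosity embryos the share of heterozygous member sites was between 79.3% and 80.5% with a median of 80.0%. In the low-heterozygosity embryos it was between 12.1% and 12.5% with a median of 12.3%. No embryo lay between these ranges. At the 106272 sites outside chromosome XIX the same embryos overlapped, with 49.8% to 54.3% heterozygous sites in the high-heterozygosity group and 48.9% to 53.3% in the low-heterozygosity group.

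The alternate base took 37.4% to 38.9% of all member reads in the high-heterozygosity embryos, against 6.58% to 7.13% in the low-heterozygosity embryos. Outside chromosome XIX it took 23.3% to 24.0% of the reads in the high-heterozygosity and 23.0% to 24.2% in the low-heterozygosity embryos. Member sites with the alternate base at 90% of reads or more were also more frequent in the high-heterozygosity group, at 5.44% to 5.73% of sites, against 1.33% to 1.57% in the low-heterozygosity group.

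Genotypes within a group were close to uniform. A pair of high-heterozygosity embryos had the same call at a median of 95.7% of the member sites over 15 pairs. For pairs of low-heterozygosity embryos the median was 96.0%, over 15 pairs. A high-heterozygosity embryo shared its call with a low-heterozygosity embryo at a median of 14.3% of the sites over 36 pairs. Outside chromosome XIX the medians of the 3 kinds of pair lay between 66.7% and 68.4%, so pairs within and between the groups were alike there.

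**Figure D1:**
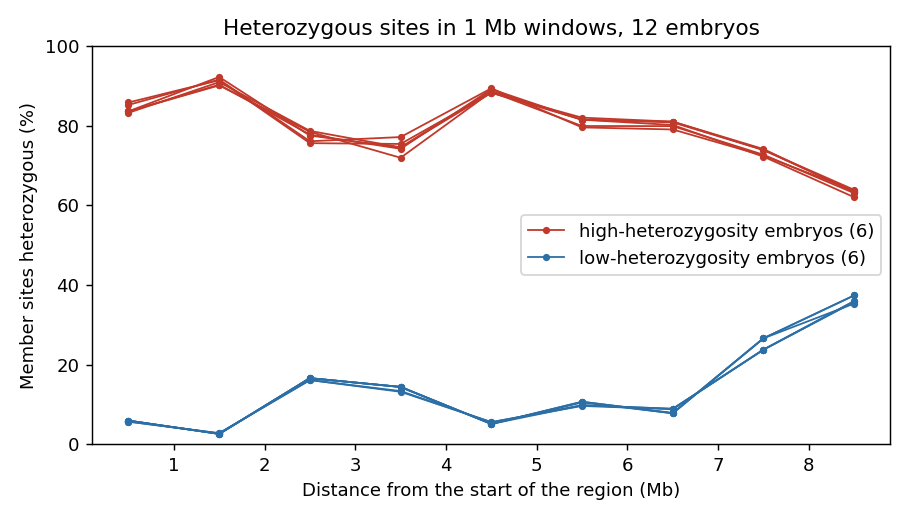
Share of member sites that were heterozygous in each 1 Mb window (vertical axis, percent), against the distance of the window's centre from the start of the stretch (horizontal axis, Mb). Each line is 1 embryo. In the last window the groups are closest, with 62.0% to 63.9% in the 6 high-heterozygosity embryos and 35.3% to 37.4% in the 6 low-heterozygosity embryos.

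Along the stretch the separation was widest between 4 and 5 Mb, where 90.1% to 92.2% of sites were heterozygous in the high-heterozygosity embryos and 2.60% to 2.76% in the low-heterozygosity embryos. It narrowed toward the far end. Between 10 and 11 Mb the shares were 72.2% to 74.1% in the high-heterozygosity and 23.8% to 26.6% in the low-heterozygosity embryos, and between 11 and 12 Mb they were closest. The plot of heterozygous sites by window shows that the lines of the 6 embryos of a group stayed together in every window.

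Most members had the same configuration. At 3777 of the 5424 sites (69.6%) every high-heterozygosity embryo was heterozygous and every low-heterozygosity embryo showed the reference base. These are called private-alternate sites below, because the alternate base was read almost only in 1 group. In the low-heterozygosity embryos 634 of 2446813 reads at these sites carried the alternate base (0.0259%), and 3358 of the sites had no such read at all. The mirror configuration, heterozygous in all high-heterozygosity and alternate in all low-heterozygosity embryos, held at 35 sites. The high-heterozygosity embryos were uniformly alternate at 200 sites and uniformly reference at 147 sites at which every low-heterozygosity embryo was heterozygous. Between 10 and 12 Mb lay 127 of these 200 sites and 48 of these 147. All 12 embryos were heterozygous at 107 sites and all 12 showed the reference base at 297 sites. The remaining sites had more than 1 genotype within a group, or the alternate base alone in both groups (9 sites).

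Private-alternate changes also differed in base composition from heterozygous sites elsewhere. A change of a G or C in the reference to an A or T made up 55.9% of private-alternate sites, against 46.2% of the 20710 sites outside chromosome XIX that were heterozygous in the same 6 embryos. Changes of an A or T to a G or C made up 26.4% of private-alternate sites, against 35.3% of those outside. The ratio of transitions to transversions was alike, 1.47 at private-alternate sites and 1.48 outside. These are descriptions of the sites, with no test.

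Where an embryo was heterozygous, the reference base had more reads than the alternate base in the high-heterozygosity group. The median log2 ratio of reference to alternate reads at the heterozygous members was 0.36, 0.37, 0.42, 0.35, 0.35 and 0.43 in embryos 2, 4, 5, 6, 7 and 11. Its mean was 0.38 ± 0.03 (SD, n = 6), a 1.30-fold excess of reference reads. In the low-heterozygosity embryos the ratio was 0.10, 0.11, 0.07, 0.08, 0.06 and 0.07 in embryos 1, 3, 8, 9, 10 and 12, with a mean of 0.08 ± 0.02 (SD, n = 6). The groups did not overlap.

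Every embryo was above 0, and flipping the signs of the embryos' values in a two-sided exact permutation test gave p = 0.0312 in the high-heterozygosity and p = 0.0312 in the low-heterozygosity group, the smallest p that 6 embryos allow. A ratio above 0 was general in these libraries, since heterozygous sites outside chromosome XIX gave 0.09 to 0.11 in the high-heterozygosity embryos and 0.10 in each low-heterozygosity embryo. Set against the embryo's own sites outside chromosome XIX, the members were 0.28 ± 0.03 higher in the high-heterozygosity embryos (SD, n = 6, exact permutation p = 0.0312). In the low-heterozygosity embryos the same difference was -0.02 ± 0.02 (SD, n = 6, exact permutation p = 0.0938). The difference between the groups was 0.30 by an exact two-sided permutation test over embryos (p = 0.00216, the smallest that 6 against 6 embryos allow). Different sites enter each group's value, since a private-alternate site is by definition not heterozygous in a low-heterozygosity embryo. The test therefore cannot tell a difference between embryos from one between sites. At the 107 sites heterozygous in all 12 embryos the median reference share was 51.8% in the high-heterozygosity and 50.9% in the low-heterozygosity embryos. Over the 20 other numbered chromosomes the mean ratio in the high-heterozygosity embryos lay between 0.05 and 0.13, below each of the 6 values of the stretch.

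**Figure D2:**
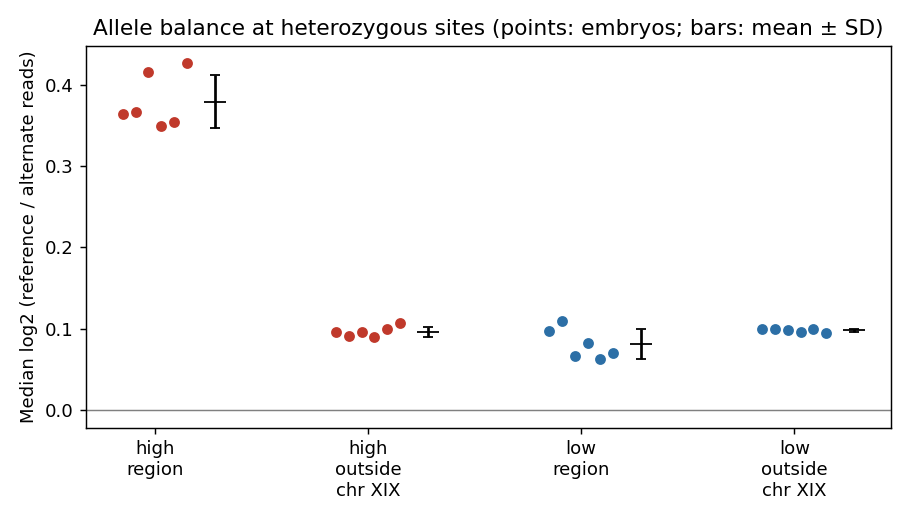
Median log2 ratio of reference to alternate reads at heterozygous sites (vertical axis), with 1 point per embryo, for member sites and for sites outside chromosome XIX, and with the mean and SD of each set of 6 embryos beside the points. Member sites of the high-heterozygosity embryos lie at 0.35 to 0.43, apart from the other sets, which lie at 0.06 to 0.11.

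In shares, the median reference share at heterozygous members was 56.0% to 57.3% in the high-heterozygosity embryos, against 51.1% to 51.9% in the low-heterozygosity embryos. The reference base had more reads at 64.8% to 68.1% of the heterozygous members in the high-heterozygosity embryos and at 52.4% to 58.4% in the low-heterozygosity embryos. Outside chromosome XIX the reference base led at 54.4% to 56.5% of heterozygous sites in the high-heterozygosity embryos and 55.1% to 57.0% in the low-heterozygosity embryos.

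The excess of reference reads was larger where sites were dense. At the 568 private-alternate sites with no other heterozygous site within 75 bp the median log2 ratio was 0.22 ± 0.03 (SD, n = 6 high-heterozygosity embryos). At the 615 sites with 5 or more such neighbours it was 0.57 ± 0.08. Outside chromosome XIX the corresponding values were 0.07 ± 0.005 at 12804 sites and 0.74 ± 0.06 at 458 sites. Such lone sites were 568 of the 3777 private-alternate sites, against 61.8% of the sites outside, so the denser classes weigh more in the stretch. Within each class of 0 to 4 neighbours the stretch was above the outside sites, and with 5 or more it was below them. Members with no such neighbour gave a ratio of 0.21, which was 0.14 above lone sites outside chromosome XIX in the same embryos (exact permutation p = 0.0312, n = 6). A read that differs from the reference at several bases can align less well, and the part this plays in the ratio was not tested beyond these classes.

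**Figure D3:**
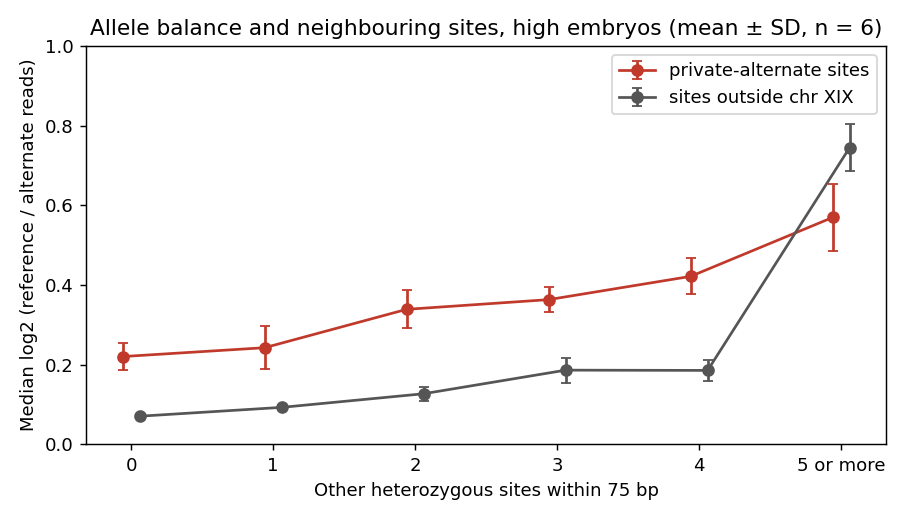
Median log2 ratio of reference to alternate reads in the 6 high-heterozygosity embryos (vertical axis, mean and SD over embryos) by the number of other heterozygous sites within 75 bp (horizontal axis), for private-alternate sites and for sites outside chromosome XIX. Both lines are lowest at 0 neighbours, at 0.22 and 0.07, and highest at 5 or more, at 0.57 and 0.74.

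Low mapping quality also differed between the groups. Reads set aside for it made up 2.25% to 2.41% at the members in the high-heterozygosity embryos and 1.68% to 2.04% in the low-heterozygosity embryos (difference 0.542 percentage points, exact permutation p = 0.00216, n = 6 each). Outside chromosome XIX the groups differed by 0.445 percentage points (exact permutation p = 0.0281, n = 6 each), with 5.31% to 6.15% in the high-heterozygosity embryos and 5.12% to 5.70% in the low-heterozygosity embryos. The part of low mapping quality in the allele ratio was not tested beyond leaving sites out. With the sites above 1% left out, the ratio in the high-heterozygosity embryos was 0.35.

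Site by site, 3944 members were heterozygous in all 6 high-heterozygosity embryos and were tested with edgeR's quasi-likelihood test with Benjamini-Hochberg adjustment, at an adjusted p below 0.05. The reference base was higher at 1713 of them (43.4%), against 23.8% of all 26885 sites tested in the genome and 17.2% of those outside chromosome XIX. All sites tested had 6394 such calls, of which 3562 lay outside chromosome XIX and 1713 were members. The rest lay elsewhere on chromosome XIX, so the raised share was not particular to the stretch. The alternate base was higher at 504 (12.8%), against 8.52% of all sites tested and 7.35% outside chromosome XIX. Joined by the same 5 kb rule, the tested members formed 125 clusters, of which 102 held a call for the reference base and 57 a call for the alternate base. Clusters were not formed outside chromosome XIX, so these counts have no background share, and a cluster with many sites more easily holds a call. The median log2 ratio over the 3944 members was 0.32, against 0.08 outside chromosome XIX and 0.11 over all sites. Of the called members 1895 went the same way in all 6 embryos, 1484 toward the reference base and 411 toward the alternate base. This count was taken for the members only and has no background from other sites. Private-alternate sites were 3777 of the 3944 sites tested, and 1674 of them were called higher for the reference and 462 for the alternate base. At the 167 other sites tested, 39 were higher for the reference and 42 for the alternate base, and the median was 0.03.

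The sites with the largest ratios toward the reference base were close to the 10% limit that defines heterozygosity, which bounds how large a ratio could be. Sites are written as the reference base, the position on chromosome XIX and the alternate base. C5686763T, with no other heterozygous site within 75 bp, had 57, 82 and 95 reference reads (lowest, median and highest of the high-heterozygosity embryos) and 8, 11.5 and 17 alternate reads. In the low-heterozygosity embryos it had 97, 151 and 157 reference reads and at most 1 alternate read. Its log2 ratio was 2.67 ± 0.15 (SE), a 6.37-fold excess of the reference base (edgeR adjusted p = 1.6e-09).

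A10660270G was the most deeply read of these 5 sites. It had 169, 314.5 and 364 reference reads and 23, 53.5 and 76 alternate reads in the high-heterozygosity embryos. In the low-heterozygosity embryos it had 512, 618 and 748 reference reads. The alternate share was thus 12.0% to 18.3% in every high-heterozygosity embryo, and the log2 ratio was 2.56 ± 0.10 (SE, edgeR adjusted p = 5.44e-11). C9829780A, C3148481T and G3044118A had log2 ratios of 2.54 to 2.57 and alternate shares of 11.1% to 20.3% over the embryos. At 4 of the 5 sites, all but C3148481T, the scaled total depth of the groups did not overlap and was lower in the high-heterozygosity embryos. The sites were chosen for few alternate reads, which also enter the total. Overlap was not counted over other sites, so this count adds no support.

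The sites with the largest ratios toward the alternate base reached a similar share on the other side. C9772627A had 7, 11 and 13 reference reads and 25, 51.5 and 58 alternate reads in the high-heterozygosity embryos, and 20, 31 and 35 reference reads in the low-heterozygosity embryos. The alternate base was 4.40-fold higher (log2 ratio -2.14 ± 0.17, SE, edgeR adjusted p = 1.05e-07), and the scaled total was above that of the low-heterozygosity embryos without overlap. G5618317C (log2 ratio -1.97 ± 0.16) and T3148267G (-1.94 ± 0.18) were also private-alternate sites, with median alternate shares of 79.4% and 77.9%. T3148267G lay 214 bp from C3148481T, where the reference base was 5.85-fold higher, so the 51 private-alternate sites at chrXIX:3142016-3148805 held both extremes.

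At A10568380T and A9546258G the low-heterozygosity embryos carried the alternate base alone. A10568380T had 9, 11 and 11 reference reads and 28, 45 and 54 alternate reads in the high-heterozygosity embryos, against 0, 1 and 3 reference reads and 65, 92 and 140 alternate reads in the low-heterozygosity embryos. The alternate base was 4.01-fold higher (edgeR adjusted p = 5.35e-07). At A9546258G it was 3.93-fold higher (edgeR adjusted p = 2.34e-07). At both sites the weaker allele was the reference base, which the low-heterozygosity embryos lacked.

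The 5 most deeply read members, at most 1 per 100 kb, differed in their alleles. C5592637A and C8495141T were even, G11629512A had more reference reads, and C4788218T and A8968531T showed the reference base alone. G11629512A had 939, 1413 and 1601 reference reads and 448, 656 and 834 alternate reads in the high-heterozygosity embryos, and 1904, 2112.5 and 2533 reference reads in the low-heterozygosity embryos. Its log2 ratio was 1.02 ± 0.08 (SE, edgeR adjusted p = 5.24e-08), while the scaled total depth differed by -0.14 ± 0.08 (SE, edgeR adjusted p = 0.539). C5592637A had 309, 379 and 389 reference and 328, 352 and 415 alternate reads in the high-heterozygosity embryos, against 468, 827 and 1078 reference reads in the low-heterozygosity embryos. Its ratio was 0.02 ± 0.07 (SE, edgeR adjusted p = 0.849). C8495141T gave -0.02 ± 0.07 (SE, edgeR adjusted p = 0.839), with alternate shares of 48.7% to 54.0%.

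C4788218T and A8968531T showed the reference base in all 12 embryos. C4788218T had 1049, 1427 and 1643 reads in the high-heterozygosity embryos, against 1661, 2281 and 2725 in the low-heterozygosity embryos, and 39.7% of the reads at this site were set aside for low mapping quality. A8968531T had 523, 886.5 and 1068 reads against 697, 855.5 and 1178, and its scaled depth overlapped between the groups.

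Because the private-alternate sites have the reference base alone in the low-heterozygosity embryos, they allow each allele's level to be set against the full level of those embryos. Levels are reads scaled by the reads outside chromosome XIX and given as a percent of the mean of the low-heterozygosity embryos. The reference base stood at 50.9 ± 3.56%, the alternate base at 39.3 ± 2.99% and both together at 90.9 ± 6.48% (SD, n = 6 high-heterozygosity embryos). By embryo the reference level was between 46.1% and 56.0% and the alternate level between 35.3% and 43.8%. The sites were chosen by allele shares, which favours a reference level below that of embryos with no other base. How far the choice sets that level was not tested. The highest single site reached 113.7%, far above most sites. These levels are a description, with no test.

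Over single private-alternate sites the reference level had a median of 51.4%, and the middle 50% of sites lay between 46.0% and 57.4%. The alternate level had a median of 40.1%, and its middle 50% lay between 28.1% and 54.3%. The alternate base had more than 50% of the reads at 1105 of the 3777 sites (29.3%). The 10% limit leaves out sites with a weaker alternate base. With a limit of 5%, 4184 members in place of 3944 were heterozygous in all 6 high-heterozygosity embryos, and the median log2 ratio per embryo averaged 0.41 in place of 0.38. At the 3690 sites with an alternate read in every high-heterozygosity embryo and none in the low-heterozygosity embryos, 86 (2.33%) had an alternate share of at most 10%, and the median share was 42.9%. Sites without an alternate read in some high-heterozygosity embryo are not in this count.

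The mirror sites gave levels on the other side. At the 35 sites where the low-heterozygosity embryos carried the alternate base alone, the alternate base stood at a median of 50.2% of their level in the high-heterozygosity embryos and the reference base at 44.7%. The median reference share was 46.7%. At the 107 sites heterozygous in all 12 embryos, the median reference share was 51.8% in the high-heterozygosity embryos and 50.9% in the low-heterozygosity embryos. The spread over those sites was wider in the high-heterozygosity embryos, with an SD of 12.3 percentage points against 6.59 in the low-heterozygosity embryos.

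Grouping the sites by position showed how the alternate level varied along the stretch. Joined by the same 5 kb rule, the private-alternate sites alone formed 124 clusters, and the 100 clusters with 5 or more of them held 3721 sites. Over these 100 clusters the median reference level was 50.8%, with a range of 36.3% to 64.2% and a coefficient of variation of 10.5%. The median alternate level was 41.4%, with a range of 11.1% to 110.1% and a coefficient of variation of 43.4%. The alternate share of a cluster had a median of 46.1% and ran from 17.4% to 66.0%. It was below 50% in all 6 embryos in 56 clusters, above 50% in all 6 in 14 clusters and on both sides in 30. Clusters outside chromosome XIX were not compared, so these counts have no background share. The median reference share at heterozygous sites there was also above 50%, at 51.6% to 51.9% in the high-heterozygosity embryos. The SD of the share over clusters was 10.9 percentage points, while the SD over embryos within a cluster had a median of 2.70, so the clusters differed by more than the embryos did.

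**Figure D4:**
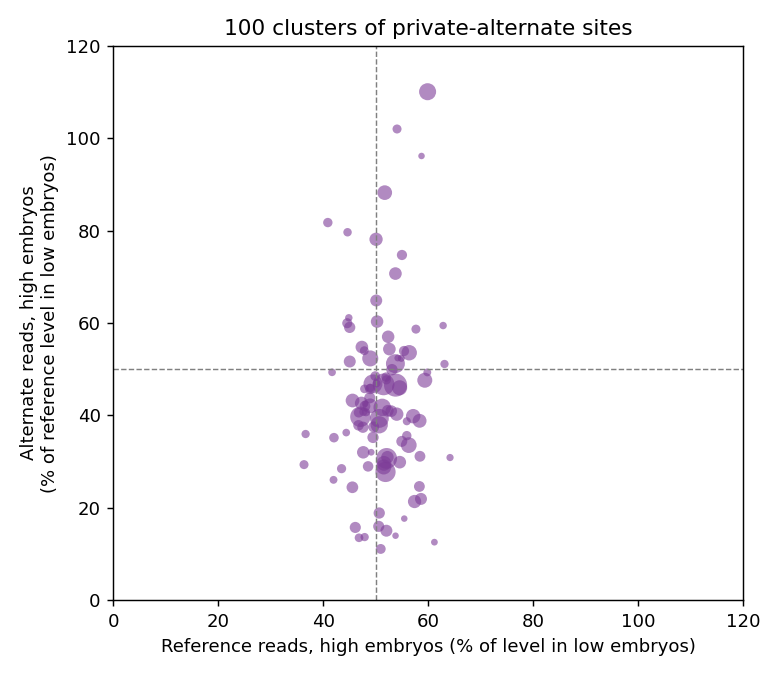
Median reference level (horizontal axis) and median alternate level (vertical axis) in the high-heterozygosity embryos, each as a percent of the level in the low-heterozygosity embryos, for the 100 clusters with 5 or more private-alternate sites, with point area growing with the number of sites. The points form a tall narrow cloud, 36.3% to 64.2% wide and 11.1% to 110.1% high, and dashed lines mark 50%.

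The clusters at the ends of this range were chosen after their values were seen, and each kept to its side in all 6 embryos. In the cluster at chrXIX:9017853-9030850, with 81 private-alternate sites, the alternate share was 58.0%, 62.6% and 71.9% (lowest, median and highest of the 6 embryos). Its alternate level of 110.1% was above the full level of the low-heterozygosity embryos. The scaled total depth, as the median over the 81 sites, was 135%, 173% and 202% in the high-heterozygosity embryos, against 91.8%, 98.8% and 112% in the low-heterozygosity embryos, with no overlap.

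The 17 sites at chrXIX:8649394-8652465 behaved alike, with an alternate share of 59.4% to 73.4% and a total of 127% to 202%, against 95.9% to 112% in the low-heterozygosity embryos. In 58 sites at chrXIX:6924346-6932604 the alternate share was 61.0% to 70.5%, and the totals overlapped between the groups, at 114.5% to 182% in the high-heterozygosity and 74.2% to 118% in the low-heterozygosity embryos. The 41 sites at chrXIX:10961075-10972683 had a median alternate share of 54.9%, with 53.2% in the lowest embryo, and a total of 122% to 132%, against 88.7% to 110% in the low-heterozygosity embryos. In 3 of the 100 clusters, those at 8649394, 9017853 and 10961075, the totals were above the low-heterozygosity embryos without overlap. No clusters outside chromosome XIX were compared, so the share to be found elsewhere is not known.

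At the other end, 22 sites at chrXIX:9825299-9831243 had an alternate share of 15.1% to 19.5% and an alternate level of 11.1%, while their reference level was 51.0%. The total was 52.2% to 68.8% in the high-heterozygosity embryos, against 89.0% to 110.5% in the low-heterozygosity embryos. The 30 sites at chrXIX:4807326-4816362, with a mean of 253 reads per site, had an alternate share of 21.7% to 25.3% and a total of 55.7% to 67.4%, against 83.8% to 113% in the low-heterozygosity embryos. The 30 sites at chrXIX:6598697-6613764 and the 13 sites at chrXIX:3134136-3134779 had alternate levels of 16.0% and 13.7%. In all, 11 of the 100 clusters had a total below that of the low-heterozygosity embryos without overlap, and their alternate share ran from 17.4% to 44.0%. Clusters were not compared outside chromosome XIX, so this count has no background share beside it. No gene name is attached to any cluster here.

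Across the 1 Mb windows the median reference level of private-alternate sites lay between 48.2% and 53.2%, and their alternate level between 35.9% and 45.3%. The log2 ratio by window was taken over all heterozygous members, so it covers more sites than these levels. It was 0.70 ± 0.09 (SD, n = 6 high-heterozygosity embryos) between 3 and 4 Mb and 0.51 ± 0.12 between 5 and 6 Mb. It was 0.19 ± 0.06 between 9 and 10 Mb and 0.19 ± 0.08 between 11 and 12 Mb. In each of the 9 windows all 6 embryos were above 0. Heterozygous sites outside chromosome XIX gave 0.09 to 0.11 in these embryos, however. The lowest embryo was at 0.11 both between 9 and 10 Mb and between 11 and 12 Mb.

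Total depth at the member sites was lower in the high-heterozygosity embryos. Depth was scaled by the embryo's reads outside chromosome XIX and centred on each site's mean, and the median over members was taken per embryo. It was -0.03, 0.05, -0.20, -0.09, -0.17 and -0.08 (log2) in embryos 2, 4, 5, 6, 7 and 11, and 0.08, 0.15, 0.27, 0.08, 0.12 and -0.04 in embryos 1, 3, 8, 9, 10 and 12. The group means differed by -0.19, or 0.875-fold (exact two-sided permutation test, p = 0.00649, n = 6 each), and the ranges overlapped. The difference was not particular to the stretch. Over all 10197 kept sites of chromosome XIX, members included, it was larger, at -0.28 (exact permutation p = 0.00216, n = 6 each). Outside chromosome XIX the same measure differed by 0.02 (exact permutation p = 0.558, n = 6 each), and over the 20 other numbered chromosomes it ran from -0.003 to 0.06. Among these 20 the lowest unadjusted exact permutation p was 0.253 (n = 6 each).

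Relative to the embryo's own median outside chromosome XIX, the members stood at -0.13 to -0.04 in the high-heterozygosity embryos and at 0.06 to 0.15 in the low-heterozygosity embryos, with no overlap. The difference was -0.22, or 0.860-fold (exact permutation p = 0.00216, n = 6 each). This relative value was added after the data had been seen. With 1 site per 500 bp the difference without the subtraction was -0.13 (exact permutation p = 0.0844, n = 6 each) and no longer passed the test, while with the subtraction it was -0.17 (exact permutation p = 0.00216, n = 6 each). In the sum over sites, members took 27.2 to 30.5 reads per 1000 reads outside chromosome XIX in the high-heterozygosity embryos and 31.2 to 35.0 in the low-heterozygosity embryos. In whole embryos, less RNA per cell and fewer cells that express a gene cannot be told apart.

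By window the relative depth difference ran from -0.37 between 5 and 6 Mb to -0.11 between 7 and 8 Mb. It was below 0 in all 9 windows, with exact permutation p-values of 0.00278 to 0.0368 after adjustment over the 9 windows (n = 6 each). Without the subtraction, the windows from 4 to 5 Mb (-0.13, adjusted exact permutation p = 0.195) and from 7 to 8 Mb (-0.09, adjusted exact permutation p = 0.26) did not pass, and the other 7 did. These same 2 windows had the highest heterozygosity in the high-heterozygosity embryos.

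The depth difference was uneven over kinds of site. At the 3777 private-alternate sites the relative depth was -0.11, -0.08 and -0.003 (lowest, median and highest) in the high-heterozygosity embryos and 0.002, 0.07 and 0.12 in the low-heterozygosity embryos, and the means differed by -0.14. At the 107 sites heterozygous in all 12 embryos the means differed by -0.05 and the groups overlapped. At the 297 sites with the reference base in all 12 embryos the relative depth was -0.26, -0.20 and -0.16 in the high-heterozygosity embryos and 0.18, 0.21 and 0.25 in the low-heterozygosity embryos, a difference of -0.42. It was -0.41 at the 200 sites that were alternate in the high-heterozygosity and heterozygous in the low-heterozygosity embryos, and -0.31 at the 147 sites that were reference in the high-heterozygosity and heterozygous in the low-heterozygosity embryos. The kinds are set by the allele shares, which also enter the depth, so the difference between kinds was not tested.

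**Figure D5:**
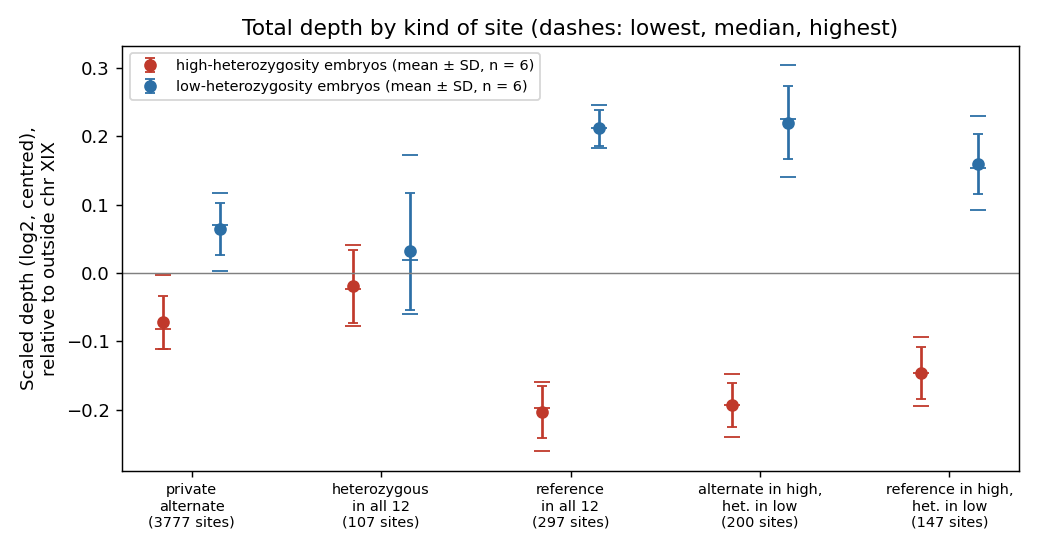
Scaled depth relative to sites outside chromosome XIX (vertical axis, log2, centred per site) for 5 kinds of member site, with the mean and SD of the 6 high-heterozygosity and the 6 low-heterozygosity embryos, and dashes at the lowest, median and highest embryo. The high-heterozygosity embryos are lower without overlap for every kind except the 107 sites heterozygous in all 12 embryos.

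Among sites with the reference base in all 12 embryos, single sites were spread widely. Their total level in the high-heterozygosity embryos had a median of 73.1% of that in the low-heterozygosity embryos, with 25% of the sites at or below 55.6% and 25% at or above 101.7%. At the private-alternate sites the same quartiles were 77.3% and 107.8%.

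Site by site, depth was lower in the high-heterozygosity embryos at 838 of the 5424 members (15.4%) by edgeR's quasi-likelihood test (adjusted p below 0.05 over all 116469 sites), against 2.07% of all sites tested and 0.0988% of those outside chromosome XIX. All sites had 2409 lower calls, of which 105 lay outside chromosome XIX and 838 were members. The rest lay elsewhere on chromosome XIX, so the raised share was not particular to the stretch. It was higher at 167 members (3.08%), against 0.79% of all sites and 0.657% outside chromosome XIX. The lower calls came from 87 of the 143 clusters and the higher calls from 16, counts that have no background from clusters elsewhere. The median log2 difference was -0.19 over the members, 0.02 outside chromosome XIX and 0.01 over all sites. Private-alternate sites held 289 of the lower and 133 of the higher calls among 3777 sites, and the other 1647 members held 549 and 34.

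The largest increases in depth were in few places. G9030109A, at the end of the cluster with the highest alternate level, had 40, 79 and 125 reads in the high-heterozygosity embryos, all of the reference base, against 14, 19 and 24 in the low-heterozygosity embryos, where 28.6% to 46.7% carried the alternate base. Its depth was 4.13-fold higher (log2 2.05 ± 0.22, SE, edgeR adjusted p = 1.71e-05). G6924259T, which was heterozygous in all 12 embryos, had 43, 53.5 and 77 reads against 13, 20.5 and 33, and was 2.60-fold higher (edgeR adjusted p = 0.00089). The alternate share there was 63.6% to 72.1% in the high-heterozygosity embryos and 37.5% to 53.8% in the low-heterozygosity embryos.

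C3262401T was a private-alternate site whose alternate base alone exceeded the full depth of the other group. It had 28, 39 and 50 reference reads and 116, 141 and 173 alternate reads in the high-heterozygosity embryos, against 67, 69 and 102 reference reads in the low-heterozygosity embryos. Its depth was 2.34-fold higher (log2 1.23 ± 0.14, SE, edgeR adjusted p = 3.46e-05). T11631064G and T11172472G were 3.38-fold and 2.44-fold higher. At all 5 sites the scaled depth of the groups did not overlap. They were chosen as the largest called differences in this depth, so the lack of overlap adds no support.

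The largest decreases were at members other than private-alternate sites. A8338810T had 16, 24.5 and 38 reads in the high-heterozygosity embryos, against 94, 130 and 170 in the low-heterozygosity embryos (log2 -2.37 ± 0.21, SE, edgeR adjusted p = 2.62e-06). G11080252A showed the reference base in all 12 embryos, with 25, 48.5 and 66 reads against 95, 150 and 201, and a log2 difference of -1.69 ± 0.16 (SE, edgeR adjusted p = 4.93e-06). G5561404A, also reference in all 12, had 38, 56.5 and 69 reads against 80, 154.5 and 189 (log2 -1.48 ± 0.18, SE, edgeR adjusted p = 6e-05). At these reference sites the depth fell with no other base to show which copy was read.

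G11448938T carried the reference base alone in the high-heterozygosity embryos, with 13, 29 and 38 reads, while the low-heterozygosity embryos had 22, 37 and 46 reference and 31, 38.5 and 58 alternate reads (log2 difference of the totals -1.53 ± 0.22, SE, edgeR adjusted p = 0.000281). C5702260A had 40, 74.5 and 78 reads against 147, 200 and 311 (log2 -1.65 ± 0.14, SE, edgeR adjusted p = 1.42e-06), and 22.7% of the reads at this site were set aside for low mapping quality.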

How the data were processed

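Polyadenylated RNA of 12 whole F1 embryos was sequenced, 1 library per embryo. After trimming with Trim Galore and Cutadapt 2.4 and alignment to *gasAcu1-4* by STAR (2-pass), the authors deposited counts of reference and alternate reads per site from GATK 4.1.4.1, as whole numbers without normalization. Reads of low mapping or base quality are counted in separate columns and were left out of the totals.

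Sites were joined by chromosome, position and alleles and kept when listed in all 12 embryos with more than 12 reads in each. The sites and lists were chosen with earlier results of these data known. Depth was scaled by the reads of kept sites outside chromosome XIX, with 0.5 added before log2. Values per embryo were compared with exact permutation tests. Sites were tested with edgeR 4.0.16 in R 4.3.3, over all kept sites. The allele test had the embryo as a block because both counts of a pair come from the same embryo. The SE given for a site is its absolute log2 value divided by the square root of the test's F statistic. On simulated counts the depth test recovered 189 of 200 sites changed by 1 on the log2 scale with 12 false calls among 116469 sites, and the allele test 159 of 200 with 10 false calls among 26885 sites. The simulation drew every site and allele independently, with the same dispersion throughout and no difference between embryos beyond library size. Real neighbouring sites share reads, so these figures do not give the recovery or false calls in the data.

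Named sites were the 5 largest and 5 smallest ratios among called sites with the same direction in every embryo, the 5 largest and 5 smallest called depth differences, and the 5 deepest, with at most 1 per 100 kb. Alternatives covered the read minimum, the heterozygosity limit, site spacing, mapping quality, scaling, the model, DESeq2 1.42.0 and leaving out each embryo. Scripts ran under Python 3.11.15 (scipy 1.17.1, numpy 2.4.6, pandas 2.3.3), with figures from matplotlib 3.10.9. At just over 12 reads a share is coarse, and without molecular identifiers the precision that a count gives covers counting error only.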

Additional observations from a re-analysis of the deposited data

Results flagged for a closer look

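The allele balance of the members differed between the groups. The median log2 ratio of reference to alternate reads at heterozygous members averaged 0.38 in the high-heterozygosity embryos and 0.08 in the low-heterozygosity embryos, a difference of 0.30 (exact two-sided permutation p = 0.00216, n = 6 each), with all 6 high-heterozygosity embryos above all 6 low-heterozygosity embryos. The sites entering the values differ between the groups, since 4300 to 4364 members were heterozygous in a high-heterozygosity embryo and 657 to 679 in a low-heterozygosity embryo. The test therefore cannot tell a difference between embryos from one between sites.

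High-heterozygosity embryo 6 stood apart in the share of member reads set aside for low mapping quality, at 2.25%, below the other 5 embryos of its group, the highest of which had 2.41%. The gap to the nearest of them was large against the range of the group by Dixon's criterion for 6 samples. In all 15 groups of 6 values were examined, and chance marks about 1 group in 20.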

How the results depend on the processing

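No result past its threshold changed direction under the alternatives run, and the 319 values of named sites under alternatives stayed on their side of the threshold. The log2 ratios of C5592637A and C8495141T, both near 0 and not called, changed sign, to -0.02 without embryo 4 and to 0.02 without embryo 5. The depth difference of -0.19 was between -0.22 and -0.15 under 11 alternatives, 3 of them chosen after seeing the data. Among the 11 were the other heterozygosity limits, which gave the same -0.19 and could change it only by moving embryos between groups. The depth difference was between -0.22 and -0.16 when each embryo was left out. With 1 site per 500 bp it was -0.13 (exact permutation p = 0.0844, n = 6 each). The allele ratio of the high-heterozygosity embryos was 0.21 to 0.44, and its difference from other chromosomes 0.14 to 0.31, with the lowest of both at sites with no neighbour within 75 bp and 0.44 at sites with an alternate read in every high-heterozygosity and no low-heterozygosity embryo, settings chosen after seeing the data, as were medians over clusters. Leaving out 1 embryo gave 0.37 to 0.39 and 0.28 to 0.29, and 0.0761 to 0.0854 for the low-heterozygosity embryos, where 5 embryos cannot give an exact permutation p below 0.0625. The ratio of the low-heterozygosity embryos was 0.0697 with no read minimum and 0.0546 with at most 1% low mapping quality reads (exact permutation p = 0.0625 for both, n = 6).

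Counts of called members moved more, and in several alternatives the number of members tested moved with them. In the main setting 838 (15.4%) were lower and 167 (3.08%) higher in depth, of 5424 members. With more than 30 reads in every embryo 476 (17.3%) and 58 (2.11%) of 2752 were called, against 1404 and 451 of 62891 sites. With 1 site per 500 bp it was 150 (13.8%) and 29 (2.67%) of 1086, against 586 and 146 of 43935 sites. With at most 1% low mapping quality reads 553 (14.9%) and 121 (3.26%) of 3713 were called, against 1717 and 294 of 81843 sites. With no read minimum 1208 (8.75%) were lower and 437 (3.16%) higher of 13812 members, against 3676 and 4240 of 321633 sites. Of the 1713 members with the reference and 504 with the alternate base higher, 821 and 132 also had an absolute log2 ratio of at least 1. These were 20.8% and 3.35% of 3944 members, against 2730 and 519 of 26885 sites. With more than 30 reads the counts of called members were 1046 (49.95%) and 269 (12.8%) of 2094, against 4044 and 1368 of 14058 sites. With 1 site per 500 bp they were 323 (37%) and 116 (13.3%) of 873, against 2097 and 825 of 13762 sites. With at most 1% low mapping quality reads they were 1134 (42.2%) and 338 (12.6%) of 2688, against 3543 and 1400 of 18129 sites. With no read minimum they were 2202 (31.8%) and 823 (11.9%) of 6922, against 9004 and 3359 of 50234 sites. DESeq2 called 1079 (19.9%) lower and 236 (4.35%) higher in depth of 5424 members, against 3088 and 1336 of 116469 sites. For the alleles it called 1331 (33.7%) and 348 (8.82%) of 3944, against 4470 and 1313 of 26885 sites. Leaving out an embryo gave 659 to 817 lower and 126 to 181 higher in depth, and 1579 to 1622 and 435 to 476 for the alleles. Over all 116469 sites the depth counts were then 1966 to 3258 lower and 717 to 1005 higher. Over all 26885 sites the allele counts were 5687 to 5995 and 1901 to 2093. Without the block that pairs both counts of an embryo, 1444 (36.6%) and 380 (9.63%) members were called, against 4835 and 1432 of 26885 sites. A member could have as few as 13 reads in an embryo, which limits what its counts can show.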
